A study of Mus musculus with 18 samples.

Results

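Dendritic cells grown from the marrow of Cd14-/- C57BL/6 mice differed from wild-type cells at least 2-fold at 10 genes of mouse chromosome 14, in the same direction with and without LPS. The chromosome is not that of Cd14, which lies on chromosome 18. Ghitm, Dnajc15, Rpgrip1, Dcp1a, Ngdn, Rgcc, Ndrg2, Epsti1 and Ddhd1 were lower in the CD14-deficient cells, and Rnase2a was higher. These genes were selected on that difference, read as the mean over 5 LPS times and as the single pair of arrays without LPS, so its size is given below as a description and not tested. Of the 12393 genes named by the array's annotation, 7525 counted as expressed, meaning that their leading probe set, the one with the highest mean, lay above the array median on at least 2 of the 18 arrays. The 10 genes are read by 21 probe sets annotated to 1 of them alone, of 20380 such probe sets in all, and 17 of the 21 passed that filter.

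The study hybridised 18 Affymetrix arrays, 1 for each of 3 conditions at each of 6 time points. Wild-type C57BL/6 cells, the same cells with 2 mM of the calcium chelator EGTA, and cells from Cd14-/- C57BL/6 mice were collected unstimulated and at 2, 4, 6, 12 and 24 h after addition of LPS, the cell-wall lipid of Gram-negative bacteria. All mice were 6 to 8 weeks old, and all cultures were grown with supernatant of B16 melanoma cells secreting GM-CSF, a cytokine under which marrow cells become dendritic cells, and used when most cells carried CD11c. LPS was given at 1 µg/ml to both wild-type conditions, whereas the labels state no concentration for the CD14-deficient cells. The cells without LPS were harvested 24 h after plating, and only its title marks the unstimulated EGTA array as treated. No label gives a number of backcrosses, the embryonic stem cells in which Cd14 was targeted, or separate cultures for separate arrays. Every p-value below therefore rests on the scatter among the arrays, part of which may be technical. Where conditions are compared, the LPS times serve as the replicates. If the arrays of a condition came from the same culture, a difference between cultures or mice could not be told from the condition's effect. The p-values of those comparisons would not count such a difference.

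CD14 binds LPS at the cell surface and passes it to the receptor TLR4, and in dendritic cells it also triggers a calcium influx that activates the transcription factor NFAT, which EGTA blocks from outside the cell. A knockout line moved onto C57BL/6 by backcrossing can keep stretches of the donor strain's DNA, and a base that differs under an array probe can lower that probe's signal with no change in the mRNA. For that reason every probe set is reported, since probe sets of 1 gene read different stretches of its mRNA. A level here is a quantile-normalised log2(intensity + 16), which understates the fold change of dim probe sets. In bulk RNA, fewer cells of a type and less RNA per cell cannot be told apart.

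Promoter windows from RefSeq (build GRCm38.p6, 250 bases before to 50 after a transcript start) were at hand for all 10 genes, in 14 windows. Windows are printed for Rpgrip1, the gene with the largest difference, for Rnase2a, the gene that was higher, and for Epsti1, an interferon-linked gene that responded to LPS. Each is written on the gene's strand with its CpG pairs, the sites of DNA methylation, in capitals. Rpgrip1 (chr14:52110653-52110952, plus strand) held 3 CpG pairs, Rnase2a (chr14:51256063-51256362, minus strand) 2 and Epsti1 (chr14:77903989-77904288, plus strand) 2.
Rpgrip1: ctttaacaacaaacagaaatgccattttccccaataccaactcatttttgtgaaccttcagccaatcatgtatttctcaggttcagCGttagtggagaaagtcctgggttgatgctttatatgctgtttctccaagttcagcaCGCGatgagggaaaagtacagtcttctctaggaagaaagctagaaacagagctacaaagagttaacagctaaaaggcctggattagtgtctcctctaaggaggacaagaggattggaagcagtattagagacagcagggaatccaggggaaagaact
Rnase2a: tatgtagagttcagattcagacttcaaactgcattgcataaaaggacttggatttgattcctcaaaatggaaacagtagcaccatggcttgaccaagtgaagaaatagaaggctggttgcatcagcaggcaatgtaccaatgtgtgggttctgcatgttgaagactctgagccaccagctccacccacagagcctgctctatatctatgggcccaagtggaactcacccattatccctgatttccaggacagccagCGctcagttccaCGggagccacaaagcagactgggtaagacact
Epsti1: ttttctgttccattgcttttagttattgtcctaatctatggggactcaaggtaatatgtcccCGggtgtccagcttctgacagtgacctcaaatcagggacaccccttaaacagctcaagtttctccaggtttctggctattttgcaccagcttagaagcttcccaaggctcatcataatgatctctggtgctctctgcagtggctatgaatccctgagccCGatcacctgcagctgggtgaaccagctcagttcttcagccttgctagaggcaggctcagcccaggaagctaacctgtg
The median over all 32851 mouse windows was 7 CpG pairs, with quartiles at 3 and 20. The other 7 genes held more than these 3: Ngdn had 10, Dnajc15 16, Dcp1a 25, Rgcc 26 and Ddhd1 40, while the windows of Ndrg2 held 11 to 20 and those of Ghitm 25 to 30.

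Both strands of the windows were searched for 4 motifs spelled out in full. The interferon-stimulated response element, searched as GAAA, any pair of bases and GAAA again, was in 0 of the 10 genes' windows and in 3.44% of all windows. GGAAAA, the core bound by NFAT, was found for 1 gene, against 23.4% of all windows: in Rpgrip1 it covers bases 153 to 158 of the printed run and, on the other strand, bases 25 to 30. TATAAA, the TATA box, was found for 2 genes, Ndrg2 and Rpgrip1, on the other strand in both, against 13.6% of windows. TGACTCA, the AP-1 site, was found for 0 genes, against 5.2% of windows. These matches are letters in a window and were not tested as binding sites.

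The arrays bore out the genotype labels. Cd14 read 12.65 to 13.28 in wild-type cells, 12.49 to 13.02 with EGTA and 4.28 to 5.83 in the CD14-deficient cells, with no overlap. Trimmed mean intensities ran from 328 to 469 before scaling, and the RNA integrity number was 8.8 and 8.7 for EGTA cells at 12 and 24 h and 9.3 to 10 elsewhere. The median rank correlation with the other arrays was lowest for the unstimulated EGTA array, at 0.920, and 0.938 to 0.966 for the rest. The CD11c gene Itgax and the antigen-presentation genes H2-Ab1, H2-Eb1 and Cd74 had mean levels of 11.9 to 13.6 over the 18 arrays. These were the brightest of the dendritic cell markers listed. The others that passed the filter lay between 6.04 (Itgae) and 10.31 (Irf4), while Flt3, a receptor of dendritic cell precursors, did not pass it. Macrophage markers ran from 4.77 (Cd163) to 11.83 (Adgre1), and granulocyte markers from 6.46 (Ctsg) to 13.00 (S100a8).

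Among the 7525 expressed genes, 60 met the selection rule, or 0.797%, and 10 of the 253 expressed genes on chromosome 14 did, or 3.95%. The 10 are the genes described here, 9 lower and 1 higher. Chromosome 18 followed with 5 of 188 genes, or 2.66%, Cd14 among them, and then chromosome 12 with 5 of 245, or 2.04%, all higher. On chromosome 6 the count was 0 of 386. The 50 genes elsewhere or unplaced split into 27 lower and 23 higher. Since the members' chromosome was part of the rule, these shares are a description. Just inside the 2-fold line, by the smaller of the 2 differences, lay Dcp1a, Ngdn and Dnajc15 at 1.13, 1.14 and 1.18 on the log2 scale. Just outside lay Slc39a14, higher by 1.32 under LPS and 0.80 without, Mtmr9, higher by 0.66 and 2.08, and Sh3bp5, which read -0.94 and -0.65.

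Rpgrip1 encodes a scaffold that holds the RPGR protein in the connecting cilium of photoreceptors. Its leading probe set (1421144_at) read 10.41 in wild-type cells without LPS and 10.12, 10.48, 10.59, 10.54 and 10.44 after 2, 4, 6, 12 and 24 h. With EGTA the levels were 10.57 without LPS and 10.17, 10.50, 10.59, 10.63 and 10.38 over the same times. In the CD14-deficient cells they were 5.74 without LPS, then 5.98, 5.38, 5.45, 5.71 and 5.61. All 6 CD14-deficient arrays lay below the other 12, with a gap of 4.14 between the groups. The difference from wild type was -4.81 ± 0.40 (SD over 5 LPS times) under LPS and -4.67 without. The deposited CD14-deficient intensities, 22.7 to 47.0, lay below every array's median, and the size of the difference depends on the added constant: under LPS it read -5.33 with 1 added and -3.87 with 64. The other 3 probe sets of Rpgrip1 did not pass the filter: their levels spanned 4.11 to 5.65 in the cells with CD14 and 4.14 to 5.33 in those without. They therefore neither repeat nor contradict the leading probe set.

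Ghitm and Dnajc15 encode proteins of the inner mitochondrial membrane: Ghitm belongs to the TMBIM family of transmembrane proteins, and Dnajc15 is a J-domain co-chaperone that restrains respiratory complex I. For Ghitm both probe sets were read at high level. The leading one (1415882_at) lay between 10.41 and 11.02 in the 6 CD14-deficient arrays and between 11.70 and 12.41 in the other 12. Its difference from wild type was -1.37 ± 0.08 (SD, n = 5) under LPS and -1.33 without, the narrowest spread among the leading probe sets. The second (1415881_at) also separated the groups, with 9.50 to 10.24 against 10.71 to 11.44, and differed by -1.14 ± 0.11 and -1.25.

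Dnajc15 has 1 probe set, so its difference has no second reading. Wild-type cells read 11.42 without LPS and 11.07, 10.60, 10.33, 9.92 and 10.03 over the LPS times. The CD14-deficient cells read 9.91 without LPS and 9.67, 9.07, 8.96, 8.88 and 9.51 afterwards. The groups overlapped over the whole course, because 9.91 lay above the lowest level with EGTA, 9.81 at 12 h. At matched times all 6 differences were negative: -1.51 without LPS, then -1.40, -1.54, -1.38, -1.04 and -0.52, smallest at 24 h.

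Ddhd1 encodes an intracellular phospholipase A1. Its leading probe set (1454070_a_at) lay at 8.70 without LPS and at 8.93 to 9.95 under LPS in CD14-deficient cells. In the wild type it read 9.98 without LPS and 10.35 to 11.16 under it. The difference was -1.48 ± 0.30 (SD, n = 5) under LPS and -1.28 without; the 6 and 12 arrays overlapped over the course. The second probe set (1427289_at) separated them, 5.99 to 6.71 against 7.06 to 8.50, with -1.61 ± 0.34 and -1.14. Ddhd1 and Ghitm are the 2 of the 10 genes with more than 1 expressed probe set for which each of these met the selection rule.

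Dcp1a encodes a cofactor of the enzyme that removes the cap of mRNAs before their decay. The leading probe set (1433606_at) read 8.22 without LPS and 7.90, 8.24, 7.94, 7.96 and 7.42 under LPS in wild-type cells. In CD14-deficient cells the levels were 6.36, then 6.47, 6.85, 6.86, 6.86 and 6.76, all below the lowest of the other 12 arrays by 0.56 or more. The difference was -1.13 ± 0.31 (SD, n = 5) under LPS and -1.85 without. A second, dimmer probe set (1422131_at) differed by -0.53 ± 0.17 and -0.26, short of 2-fold in both states, and its arrays overlapped. The dimmest (1431933_a_at) did not pass the filter and read -0.83 ± 0.56 and -0.12.

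Ngdn encodes neuroguidin, a component of the small-subunit processome that makes ribosomes. Its 2 expressed probe sets did not read alike. The leading one, 1438318_x_at, lay between 8.91 and 9.17 in CD14-deficient cells and between 9.92 and 10.49 in the others, with a difference of -1.14 ± 0.17 (SD, n = 5) under LPS and -1.14 without. The other, 1428226_at, lay at 8.69 to 8.96 against 8.68 to 9.14, with differences of -0.11 ± 0.11 and 0.12. Affymetrix gives the suffix _x_at to probe sets with some probes that also match other transcripts. Which probes of 1438318_x_at carry its difference cannot be read from 1 value per probe set.

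Rnase2a, which encodes a member of the eosinophil-associated ribonuclease family, was the 1 gene of the 10 that was higher. Wild-type levels were 10.26 without LPS and 10.29, 9.91, 9.82, 9.59 and 9.26 after 2, 4, 6, 12 and 24 h. With EGTA they were 10.18, then 10.09, 9.72, 9.64, 9.12 and 8.35. The CD14-deficient cells read 12.04, then 11.92, 11.51, 11.58, 11.08 and 10.53. Every CD14-deficient array lay above the other 12, by at least 0.24. The difference was 1.55 ± 0.18 (SD, n = 5) under LPS and 1.79 without, on its only probe set.

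Epsti1 is an interferon-induced gene first described in epithelial cells in contact with stroma. Its leading probe set (1452087_at) read 10.45 without LPS and 10.19, 11.41, 11.76, 11.35 and 11.11 under LPS in wild-type cells. CD14-deficient cells read 8.44, then 8.05, 9.57, 10.13, 9.86 and 9.81. The highest of these lay 0.06 below the lowest of the other 12, so the groups only just separated. The difference was -1.68 ± 0.33 (SD, n = 5) under LPS and -2.0 without. A second probe set (1454169_a_at) differed by -1.48 ± 0.49 and -1.71, with overlap. The remaining one (1432235_at), lower in level but above the filter, differed by 0.12 ± 1.37 and -0.33, so its sign was not the same in both states.

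Ndrg2 belongs to the N-myc downstream-regulated family, whose members have an alpha/beta hydrolase fold. In wild-type cells its 1 probe set read 6.87 without LPS and 6.85, 7.78, 7.65, 7.87 and 6.91 under LPS. The CD14-deficient levels were 5.62, then 5.25, 4.77, 5.19, 5.33 and 5.45. The gap between the 6 and the other 12 arrays was 1.18, second to that of Rpgrip1 among the leading probe sets. The difference from wild type was -1.60 at 2 h, -3.01, -2.46 and -2.54 at 4, 6 and 12 h, and -1.46 at 24 h, against -1.24 without LPS. Wild-type and EGTA cells read higher at 4 to 12 h than without LPS, whereas the CD14-deficient cells read at most 5.45 under LPS. Their deposited intensities of 10.2 to 41.1 lay below every array's median (77.4 to 126), and the mean difference under LPS, -2.21, read -2.86 with 1 added and -1.37 with 64.

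Rgcc encodes a protein first described as a complement response gene, which binds the cell-cycle kinase CDK1. Its leading probe set (1438511_a_at) read 11.63 without LPS and 12.41, 10.81, 10.41, 9.78 and 10.57 under LPS in wild-type cells. With EGTA it read 11.69, then 11.90, 9.88, 9.13, 8.61 and 8.98. CD14-deficient cells gave 10.24, then 9.88, 7.72, 7.23, 7.50 and 8.04. EGTA cells lay between the others at each LPS time but not without LPS. The difference of CD14-deficient from wild-type cells was -2.72 ± 0.39 (SD, n = 5) under LPS and -1.39 without. The second probe set, 1418003_at, differed by -1.11 ± 0.57 under LPS but by -0.15 without, so it met the rule only in the first state; at 12 and 24 h it was lower with EGTA (6.88 and 7.34) than without CD14 (7.43 and 7.76).

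**Figure D1:**
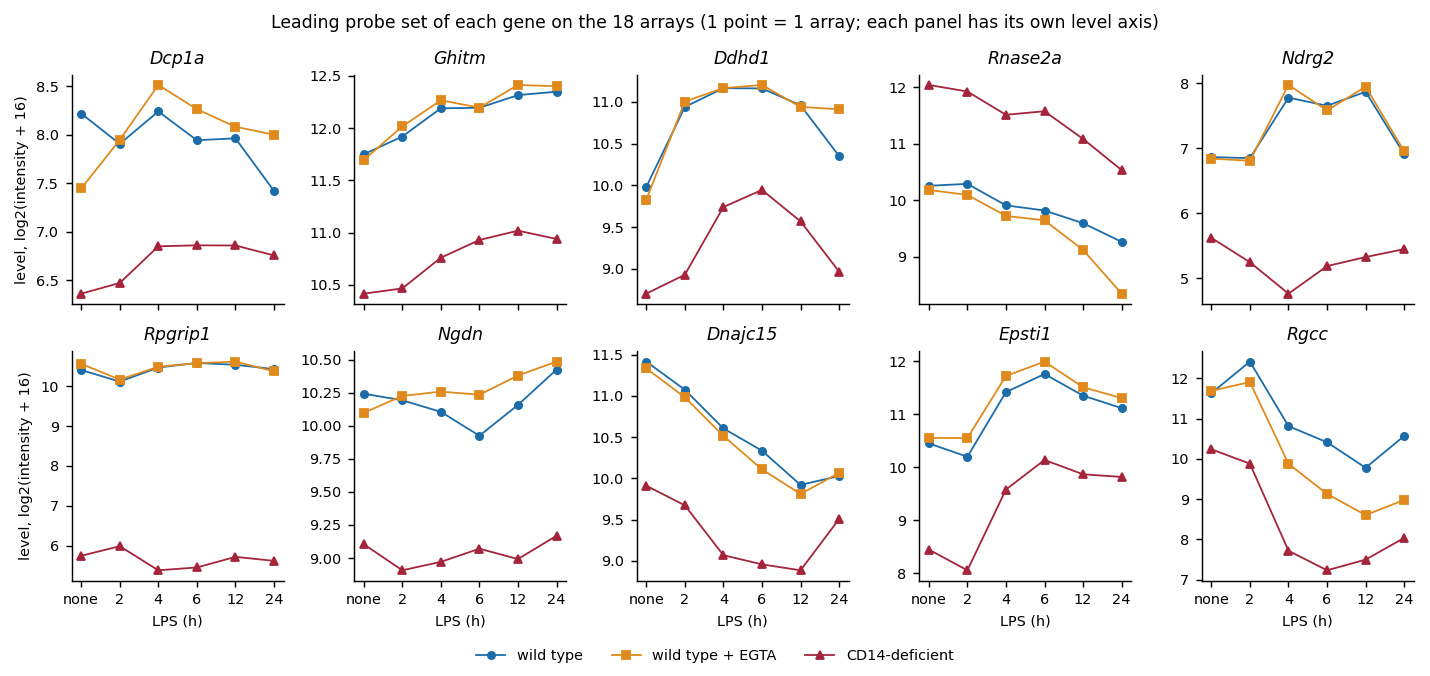
Level of the leading probe set of each of the 10 genes (vertical axis, log2(intensity + 16), 1 scale per panel) without LPS and after 2 to 24 h of LPS, with 1 point per array and a line per condition. CD14-deficient cells lie below both other conditions at each time for 9 genes and above them for Rnase2a, while EGTA cells part from the wild type for Rgcc under LPS.

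Over all 21 probe sets, 13 met the 2-fold rule in both states and 9 had their 6 CD14-deficient arrays wholly apart from the other 12, 8 lower and 1 higher. Among the 12974 expressed probe sets of the array, 0.424% lay wholly lower and 0.339% wholly higher; the rule used the wild-type and CD14-deficient arrays, so nothing is read from the members' count. Of the leading probe sets, 7 of 10 separated, and those of Ddhd1, Dnajc15 and Rgcc did not. Of the 6 genes with more than 1 expressed probe set, 2 met the rule on each of them and 4 had the same sign throughout. Among the 50 genes meeting the rule elsewhere, 11 had more than 1 expressed probe set, of which 6 met the rule on each and 8 had the same sign. Whether sequence variants between strains, under the probes or in the genes, account for any of these differences was not tested: the files hold 1 value per probe set and no genotype.

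**Figure D2:**
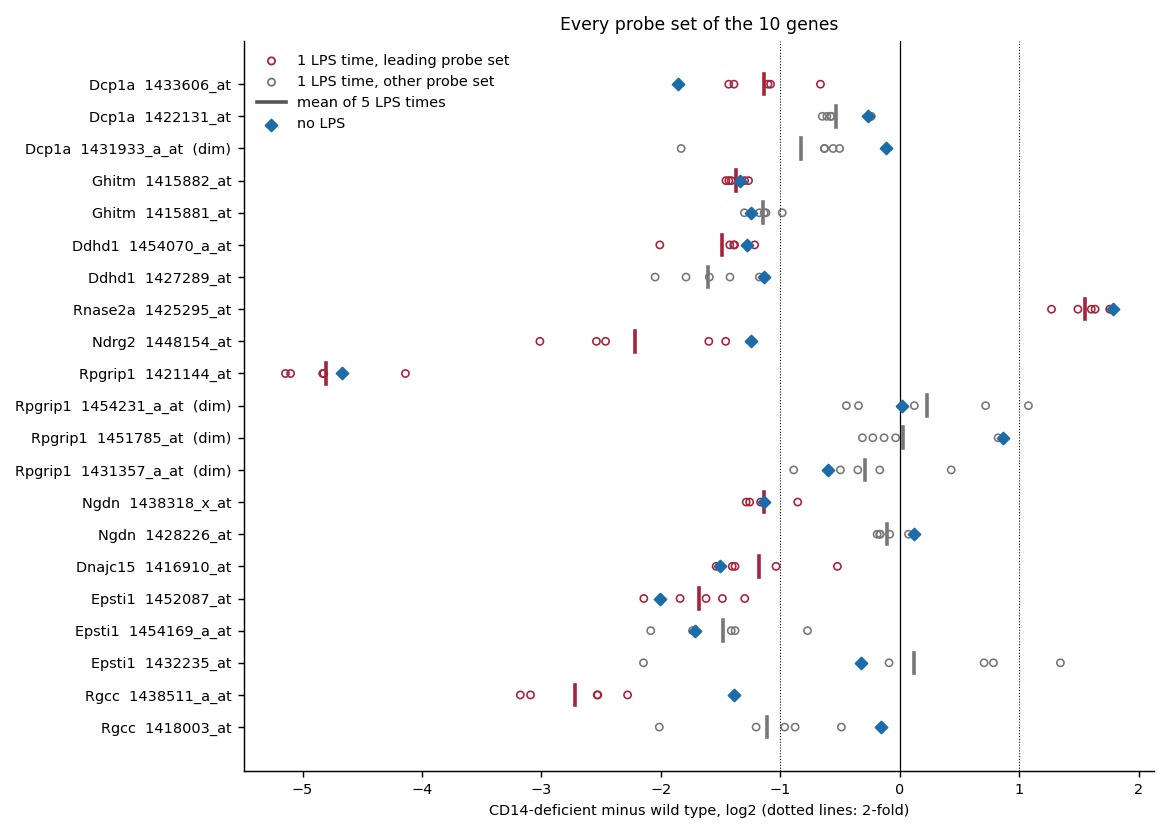
Difference of CD14-deficient from wild-type cells (horizontal axis, log2) for each of the 21 probe sets, with an open circle per LPS time, a bar at their mean and a blue diamond without LPS; dotted lines mark 2-fold and "dim" marks probe sets below the filter. Both probe sets of Ghitm and of Ddhd1 lie beyond 2-fold in both states, whereas the second probe set of Ngdn lies at -0.11 and 0.12.

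The EGTA arrays took no part in the choice of the genes. They come from cells with CD14, and their C57BL/6 label is common to every condition. Set against the EGTA arrays, the CD14-deficient arrays differed by -4.82 for Rpgrip1, -2.26 for Ndrg2, -1.93 for Epsti1, -1.61 for Ddhd1, -1.44 for Ghitm, -1.40 for Dcp1a, -1.30 for Ngdn, -1.08 for Dnajc15, -1.63 for Rgcc and 1.94 for Rnase2a, as means over the 5 LPS times. These values share the CD14-deficient arrays with the rule's contrast. Without LPS they were all of the same sign, from -0.99 for Ngdn to -4.83 for Rpgrip1 among the lower genes and 1.86 for Rnase2a.

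Under LPS, 2 of the 10 genes were lower with EGTA than in wild-type cells, and 0 were higher. Rgcc fell 2.14-fold, a log2 change of -1.10 ± 0.17 (SE) with an adjusted p of 0.0014 (limma, Benjamini-Hochberg over all probe sets), lower at 5 of 5 times: -0.51, -0.93, -1.28, -1.17 and -1.59 from 2 to 24 h, against 0.06 without LPS. Its second probe set fell too, by 0.97 ± 0.20 (adjusted p = 0.0074 by limma). Rnase2a fell 1.31-fold, -0.39 ± 0.09 with an adjusted p of 0.0167 by limma, also at 5 of 5 times, and most at 12 and 24 h (-0.47 and -0.92), the EGTA arrays with the lower RNA integrity numbers; the part of RNA quality in this was not tested. The call of Rnase2a was lost without the 12 h arrays (adjusted p = 0.0909) and on unscaled values (0.113). With no time block neither gene passed the threshold (adjusted p = 0.699 for Rgcc and 0.873 for Rnase2a). Over the whole array 6.70% of the 12725 probe sets tested rose and 6.08% fell; on unscaled values 71.1% of the calls were higher, against 52.4% here.

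The other 8 genes passed no threshold with EGTA. Their differences were 0.27 ± 0.10 (SE) for Dcp1a, 0.25 ± 0.11 for Epsti1, 0.16 ± 0.07 for Ngdn, 0.13 ± 0.12 for Ddhd1, 0.06 ± 0.05 for Ghitm, 0.04 ± 0.22 for Ndrg2, 0.02 ± 0.12 for Rpgrip1 and -0.10 ± 0.12 for Dnajc15. Without LPS the EGTA array differed from the wild type by -0.77 for Dcp1a and by -0.15 to 0.15 for the other 9. Under LPS the median over the 10 genes was 0.05, beside 0.0050 over all probe sets tested. For Rgcc, EGTA lay on the same side of the wild type as loss of CD14, and for Rnase2a on the opposite side. These comparisons share the wild-type arrays.

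LPS changed 6 of the 10 genes as a mean over 5 times, with the 3 conditions as replicates: 3 rose and 3 fell. Ddhd1 rose by 0.96 ± 0.12 (SE; adjusted p = 7.17e-06 by limma), Epsti1 by 0.88 ± 0.11 (8.56e-06) and Ghitm by 0.47 ± 0.05 (7.13e-07), each in 3 of 3 conditions. Rgcc fell by 1.66 ± 0.22 (adjusted p = 1.02e-05 by limma), Dnajc15 by 0.92 ± 0.12 (9.37e-06) and Rnase2a by 0.66 ± 0.09 (2.22e-05), again in 3 of 3 conditions. The 4 genes that passed no threshold were Dcp1a at 0.26 ± 0.15, Ndrg2 at 0.24 ± 0.24, Ngdn at 0.02 ± 0.07 and Rpgrip1 at -0.07 ± 0.12. Dcp1a and Ndrg2 differed in sign between conditions: Dcp1a read -0.32 in wild-type cells, 0.71 with EGTA and 0.40 without CD14, and Ndrg2 0.55, 0.61 and -0.43; these differences between conditions were not tested. Of the 17 probe sets of these genes tested, 8 rose and 4 fell. Over all 12974 probe sets, 26.2% rose and 32.9% fell with LPS, so the members' count is not read as particular to them.

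At 24 h, when the time since plating comes nearest to that of the cells without LPS, the same 6 genes were called in the same directions. Epsti1 stood at 0.93 ± 0.15 (SE), Ghitm at 0.61 ± 0.06 and Ddhd1 at 0.57 ± 0.16 above no LPS, with adjusted p of 8.58e-05, 1.08e-06 and 0.0070 by limma. Rgcc fell by 1.99 ± 0.28, Rnase2a by 1.45 ± 0.12 and Dnajc15 by 1.02 ± 0.15 (adjusted p = 3.21e-05, 1.44e-07 and 6.05e-05 by limma). The background here was 23.9% of probe sets higher and 25.8% lower. Unscaled values carried a shift of -0.32 in the median of all probe sets for the mean over times and -0.31 at 24 h, and there the call of Ddhd1 at 24 h was lost (adjusted p = 0.258). The higher calls were 44.3% of all calls for the mean over times (61.5% with median centring, 18.7% unscaled) and 48.1% at 24 h (57.6% and 18.4%).

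Within the LPS course, late times (12 and 24 h) were compared with early ones (2, 4 and 6 h). Rgcc fell by 1.02 ± 0.18 (SE), Rnase2a by 0.84 ± 0.08, Dnajc15 by 0.44 ± 0.10 and Ddhd1 by 0.30 ± 0.10, with adjusted p of 0.000292, 6.79e-07, 0.0018 and 0.0229 by limma. Ghitm rose by 0.25 ± 0.04 and Ngdn by 0.17 ± 0.06 (adjusted p = 0.000137 and 0.0313 by limma). Over all probe sets 26.3% were higher and 23.3% lower, and 53.0% of the calls were higher (40.8% with median centring, 60.9% unscaled). The fall of Rnase2a was called at every alternative run. Leaving out an LPS time changes the early or the late mean, and so the difference compared. Without the 2 h arrays, where wild-type Rgcc peaked, Rgcc read -0.29 (adjusted p = 0.287 by limma) and Dnajc15 -0.23 (0.126). The calls of Dnajc15 (without 12 h, -0.28, adjusted p = 0.101), Ddhd1 (without 4, 6 or 24 h, -0.25, -0.21 and -0.09, and unscaled, -0.32) and Ngdn (without 2, 4, 6 or 24 h, 0.08 to 0.18) were lost as well. Under median centring and unscaled, Ghitm (0.05 and 0.16) and Ngdn (0.06 and 0.18) passed no threshold.

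**Figure D3:**
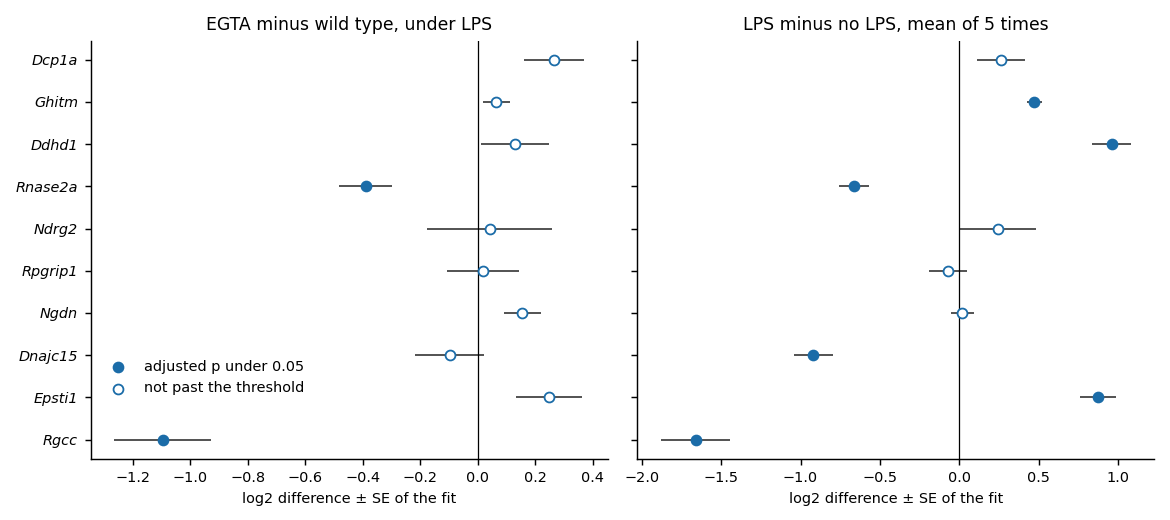
Fitted log2 differences of the 10 genes with their standard errors (horizontal axes), for EGTA against wild type over the 5 LPS times (left) and for LPS against no LPS over the 3 conditions (right); filled points passed an adjusted p of 0.05. With EGTA, Rgcc at -1.10 and Rnase2a at -0.39 are filled, and with LPS 3 genes are filled on each side of 0.

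Genes with related functions, from lists drawn up with earlier results of these data known, were read on the difference of CD14-deficient from wild-type cells under LPS. Over the 7401 genes tested at their leading probe set, 15.9% were higher and 12.0% lower, with a median of 0.03; over probe sets 55.2% of the calls were higher, against 41.0% with median centring and 19.9% unscaled. With no time block, where differences between times count as error, nearly all calls in the lists below were lost: those left were 1 interferon-induced gene lower, 1 eosinophil marker lower, and 1 macrophage marker higher and 1 lower. Of 10 interferon-induced genes beside Epsti1, 8 were lower and 0 higher, with a median of -0.98. Mx1, an antiviral GTPase, differed by -1.13 ± 0.11 (SE, adjusted p = 1.02e-05 by limma), and Stat2, a transducer of interferon signals, by -0.81 ± 0.11 (0.000225). Oasl1, an oligoadenylate synthetase-like protein, differed by -1.25 ± 0.18 (0.000354). Without LPS the same 10 genes ranged from -1.64 (Usp18) to 0.00 (Mx1), with a median of -0.35, beside -2.0 for Epsti1.

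Of 14 other genes of the inner mitochondrial membrane and protein import, 6 were higher and 1 lower, with a median of 0.09. On unscaled values the median read -0.05, and 1 was higher and 1 lower. The lower gene was Tmbim4, of the TMBIM family, at -0.20 ± 0.06 (SE, adjusted p = 0.0203 by limma). It was called under both other scalings (-0.29 and -0.35) but not without the 4, 12 or 24 h arrays. Tmbim1 and Tmbim6 of that family passed no threshold (0.04 and 0.05). Phb2, a prohibitin, rose by 0.48 ± 0.07 (SE, adjusted p = 0.000248 by limma), and Timm23, the import channel and itself on chromosome 14, by 0.22 ± 0.05 (0.0050), a call lost under both other scalings (0.12 and 0.05). Of 8 small-subunit processome genes beside Ngdn, 2 were higher, Fbl by 0.50 ± 0.08 and Nop58 by 0.47 ± 0.10 (adjusted p = 0.000446 and 0.0054 by limma), and the call of Nop58 was lost on unscaled values (0.38, adjusted p = 0.056). Of 8 decapping and decay genes beside Dcp1a, Xrn1, the 5′-to-3′ exonuclease, differed by -0.56 ± 0.10 (adjusted p = 0.0019 by limma). Ddx6, a decapping helicase, was higher by 0.19 ± 0.06 (0.0433), a call lost in several alternatives, both other scalings among them.

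Around Rgcc, 2 of 5 genes were higher and 2 lower. The cell-cycle kinases Plk1 and Cdk1 were higher by 1.04 ± 0.18 (SE) and 0.45 ± 0.11, and the complement receptor gene C3ar1 and the hypoxia factor gene Hif1a differed by -0.90 ± 0.15 and -0.45 ± 0.04, with adjusted p of 0.00096, 0.0085, 0.00095 and 1.29e-05 by limma; the call of Cdk1 was lost on unscaled values and without the 4 h arrays. The 3 other Ndrg genes passed no threshold, with a median of -0.12. Among 6 intracellular phospholipase genes, Ddhd2, the relative of Ddhd1, was higher by 0.36 ± 0.07 (adjusted p = 0.0031 by limma), a call lost on unscaled values (0.28). Of the cilium genes listed with Rpgrip1, 2 were on the array and 0 passed the filter.

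Among ribonucleases of the family of Rnase2a, 2 of 6 on the array were expressed. Ear3, another eosinophil-associated ribonuclease with no chromosome in the table used, was higher by 1.19 ± 0.07 (SE) under LPS (adjusted p = 1.82e-07 by limma) and by 1.76 without LPS. Its probe set 1422412_x_at may share probes with relatives, and of all expressed genes its levels were most like those of Rnase2a. Rnase4, the expressed gene next before Rnase2a on the chromosome, differed by -0.40 ± 0.07 (0.0010). Whether the 2 probe sets of Rnase2a and Ear3 read 1 mRNA or both was not tested.

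Cell type markers, tested under LPS, moved with the CD14-deficient condition too, but not all of them also without LPS. Of 3 eosinophil markers tested, 2 were lower, on the side opposite to Rnase2a. Prg2, the granule major basic protein, differed by -1.86 ± 0.09 (SE) and Epx, eosinophil peroxidase, by -0.79 ± 0.16 (adjusted p = 4.33e-08 and 0.0028 by limma). Without LPS they read -2.12 and -0.74. Siglecf passed no threshold (-0.08, adjusted p = 0.66 by limma). The eosinophil markers below the filter lay on both sides without LPS, from -1.08 to 0.69. The summed deposited intensity of the 7 eosinophil markers on the array ran from 266 to 1917 in wild-type cells, 273 to 1657 with EGTA and 239 to 1233 without CD14, and Il5ra and Ccr3 did not pass the filter. Of 9 macrophage markers 6 were lower, led by Apoe at -1.65 ± 0.06 (adjusted p = 3.23e-09 by limma), and 1 higher, Marco at 1.67 ± 0.13 (3.05e-06); the list's sums ran from 14008 to 28513, 17469 to 26058 and 8876 to 27749. Without the 6 h or the 12 h arrays, 3 macrophage markers were lower. Without LPS, on 1 array a side, Apoe read -1.43 and Marco 1.90. The other macrophage markers called lower read -0.25 to 0.09 there.

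Of 12 granulocyte markers 5 were higher, led by Camp at 1.53 ± 0.16 (SE, adjusted p = 3.25e-05 by limma), and 2 lower (Mmp8 and Mmp9), with sums of 14640 to 45214, 14466 to 42306 and 19767 to 43298. Without the 12 h arrays 3 granulocyte markers were higher. Without LPS Camp read 1.01, Mmp8 -0.39 and Mmp9 -1.92, and the other granulocyte markers called higher read -0.14 to 0.38. Of 4 mast cell and basophil markers 2 were lower (Cpa3 and Kit), with sums of 727 to 1120, 691 to 1129 and 514 to 912. Without the 4 h arrays 1 was lower, and without the 24 h arrays 4. In cells without LPS Cpa3 read -0.55 and Kit -0.47. Of 11 dendritic cell markers 6 were higher, among them H2-Eb1 at 0.36 ± 0.06 (adjusted p = 0.00093 by limma). The sums of that list were 25647 to 39935, 31191 to 37574 and 29965 to 44465. On unscaled values 2 dendritic cell markers were higher. In cells without LPS the 6 read from 0.03 (Itgax) to 0.73 (Ciita). The B16 marker tested, Mitf, passed no threshold, but was lower with median centring (-0.26, adjusted p = 0.0316 by limma) and unscaled (-0.33, 0.0229), and none of the T, B and NK cell or erythroid markers on the array passed the filter. What part these cells had in the members' differences was not tested.

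In gene order along chromosome 14 the members did not form 1 block. Among the 253 expressed genes, counted from the centromeric end, they held places 50 (Dcp1a), 74 (Ghitm), 84 (Ddhd1), 104 (Rnase2a), 106 (Ndrg2), 110 (Rpgrip1), 133 (Ngdn), 223 (Dnajc15), 224 (Epsti1) and 226 (Rgcc). Dnajc15 and Epsti1 were next to each other, and 89 expressed genes lay between Ngdn and Dnajc15. From the first to the last there were 177 expressed genes, 167 of them not members. Of the 243 other expressed genes of the chromosome, 216 lay within 1.5-fold of wild type in both states, with a median difference of 0.03 under LPS. Every expressed gene of the chromosome that met the rule is a member and left out here. The closeness of the 243 to wild type is thus partly set by that choice.

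The nearest expressed neighbours that were not members, 16 genes in all, read between -0.40 and 0.54 under LPS. Members were passed over, so none of these neighbours met the rule. Without LPS they ranged from -1.48 (Tsc22d1, next before Dnajc15) to 1.10 (Supt16, next after Rpgrip1). Of these neighbours 7 were lower in both states and 2 higher in both, Hnrnpc and Supt16. Hnrnpc, next before Rpgrip1, read 0.14 and 0.15, and Mettl17, between Rnase2a and Ndrg2, -0.30 and -0.63. Vwa8, between Epsti1 and Rgcc, read -0.20 and -0.26.

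**Figure D4:**
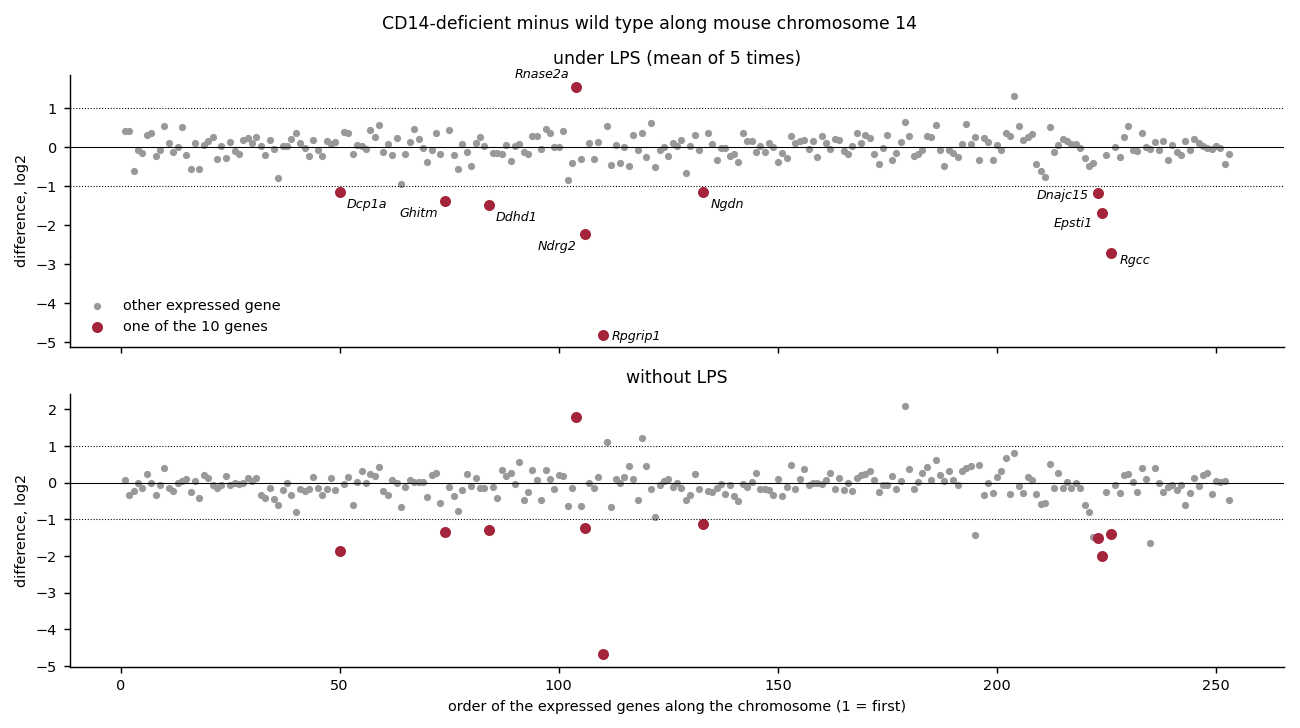
Difference of CD14-deficient from wild-type cells (vertical axes, log2) for the 253 expressed genes of chromosome 14 in gene order (horizontal axis), under LPS as the mean of 5 times (top) and without LPS (bottom); dotted lines mark 2-fold. Under LPS the nearest neighbours of the 10 genes lie between -0.40 and 0.54, and 7 of the 10 stand at places 50 to 133 and 3 at places 223 to 226.

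The gene most like each member over the 18 arrays, by Pearson correlation among expressed genes, was found as a description, since the arrays share conditions and times. The members were chosen for differing in the CD14-deficient arrays. A high correlation with Cd14, or between members, therefore follows in part from that choice and is not read as shared regulation. Rpgrip1 and Ngdn were most like Cd14 (r = 0.99 and 0.97). Ghitm was most like Ngdn (0.95) and Ndrg2 most like Rpgrip1 (0.93). Rnase2a was most like Ear3 (0.98), Dnajc15 most like Itgam (0.94), Epsti1 most like Tmem140 (0.93), Ddhd1 most like Plcl2 (0.93), Rgcc most like Galns (0.93) and Dcp1a most like Slc15a2 (0.92).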

How the data were processed

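Expression was measured on 18 arrays. The authors deposited linear intensity values, 1 per probe set, made with MAS5 per the submitters' processing notes; neither its version nor its scaling target is given in the sources used here. MAS5 summarises each array by itself. From these values, log2(value + 16) was quantile-normalised over the arrays, leaving out 64 of 22690 probe sets (controls). Of the rest, 20380 were annotated to 1 gene, 691 to several and 1555 to none; gene order came from RefSeq GRCm38.p6. Tests used limma 3.58.1 in R 4.3.3 (lmFit, eBayes with intensity trend), with Benjamini-Hochberg adjustment at 0.05 over all probe sets above the array median on at least 2 fitted arrays. Conditions were compared over 15 LPS arrays with time as a block (8 residual degrees of freedom), LPS over 18 arrays with condition as a block (10 residual degrees of freedom). No condition and time was replicated, so precision is limited by how few arrays there are. The procedure was tested on simulated data.

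The members and all lists were chosen with earlier results of these data known. Named besides the members were Cd14, the 3 genes on either side of the 2-fold line, the nearest neighbours and the gene most like each member. Up to 3 called genes were named for most lists, and more for some, that of Rgcc among them. Some markers that passed no threshold or filter were named beside these. Alternatives were other scalings, added constants, filters, blocks and thresholds, and leaving out each LPS time.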

Additional observations from a re-analysis of the deposited data

Results flagged for a closer look

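In 3 of 30 groups of 5 LPS arrays tested, 1 array lay far from the other 4 by Dixon's test. Among replicates, chance passes this test in about 1 of 20 groups. Here the 5 arrays of a group are 5 LPS times, so that rate does not apply and a change with time can give such a gap. CD14-deficient cells at 2 h read 6.47 for Dcp1a, low against 6.76 to 6.86 at the other LPS times, a gap of 0.73 of the range. The same array read 8.05 for Epsti1, low against 9.57 to 10.13, also with a gap of 0.73 of the range. For Epsti1, 2 h was the lowest LPS time in wild-type cells (10.19) and with EGTA (10.55) as well. Wild-type cells at 24 h read 10.35 for Ddhd1, low against 10.94 to 11.16, with a gap of 0.72 of the range.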

How the results depend on the processing

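The 10 genes met the 2-fold rule with median centring, with 1 added and without each LPS time in turn. On unscaled values 9 did, Ngdn reading -0.96 without LPS, and with 64 added 8 did, Dcp1a reading -0.87 under LPS and Ndrg2 -0.76 without. At 3-fold 2 did, and 6 did when each expressed probe set of the gene had to. All genes meeting the rule numbered 60, and 38 with 64 added, 199 at 1.5-fold and 16 at 3-fold. Probe sets wholly apart numbered 99, and 59 on unscaled values. Leaving out LPS times in turn (which are the replicates of a condition) moved the calls with EGTA from 1627 to between 640 and 1702 (802, 660 and 640 without 4, 6 or 12 h). Those without CD14 moved from 3457 to between 2286 and 3310. For late against early times the conditions are the replicates, and leaving out a time also changes the times compared. The calls there moved from 6433 to between 4262 and 6442. With EGTA 1 to 2 members were called with an LPS time left out, 1 on unscaled values and 0 with no time block. On unscaled values EGTA had 1061 calls and 3 members were called for late against early times. With no time block the calls fell to 81 with EGTA and 230 without CD14. With 1 probe set a gene fewer features were tested, giving 952 calls with EGTA, 4527 for LPS, 3794 at 24 h, 3886 for late against early times and 2094 without CD14.

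Signs turned only for differences that passed no threshold as reported. For LPS these were, unscaled, Dcp1a -0.0872, Ndrg2 -0.0811 and Ngdn -0.183; Rpgrip1 0.210 with median centring; and Ngdn -0.0822 without the unstimulated EGTA array and -0.0300 without 24 h. At 24 h they were Dcp1a -0.271 unscaled and -0.176 without that EGTA array, Ngdn -0.0543 unscaled, Rpgrip1 0.0803 and Ndrg2 0.0491 with median centring, and Ndrg2 0.0083 with 64 added. For late against early times they were Rpgrip1 -0.0221 with median centring, Ndrg2 -0.0810 and -0.212 without 2 h or 12 h, and Epsti1, which read -0.274 without 2 h (adjusted p = 0.0196 by limma) and was called higher without 4, 6 or 24 h. Epsti1 with EGTA, at 0.25, passed the threshold with only the 2 conditions in the fit (adjusted p = 0.0128 by limma). Causes of these changes were not tested. Arrays were paired by LPS time, as the time block does; the labels give no other replicate numbers.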
